A study of Ovis aries with 4 samples.

Results

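The genes that build the mitotic spindle and attach chromosomes to it were examined in 4 sheep conceptuses, together with their kinesin and centrosome relatives. Members were chosen by name: centromere proteins (CENP), kinesins (KIF), centrosomal proteins (CEP), the BUB, Aurora and polo kinases, the NDC80 complex, and named partners such as CDC20, BIRC5, TPX2 and PRC1. The rule took 109 of the 25197 features in the table. No measured value entered the choice, and 5 of the 109 carry a member's name only as a prefix. All 4 conceptuses formed 1 group, collected on day 14 of pregnancy from 4 crossbred Columbia and Rambouillet ewes, with no treatment and no second group. A conceptus is the embryo with its membranes, mostly a thread of trophectoderm at this age. Each library is the total RNA of a whole conceptus after removal of ribosomal RNA, so more dividing cells and more RNA per dividing cell cannot be told apart.

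During mitosis each chromosome carries a kinetochore, a protein plate built on centromeric chromatin marked by the histone variant CENPA. An inner layer of CENP proteins, the constitutive centromere-associated network (CCAN), holds the outer NDC80 complex, which grips microtubules. A checkpoint of BUB and MAD proteins holds back the anaphase activator CDC20 until chromosomes are attached, and Aurora and polo kinases correct attachments and drive entry and exit. Kinesins are motors that walk on or dismantle microtubules, and centrosomes organise the spindle poles.

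Levels are given as RPKM, reads corrected for the length of the transcript and the size of the library. Comparisons between genes rest on that length correction, and the annotation behind it is not named in the sources used. Values after ± are the SD over 4 conceptuses (n = 4). The labelled tissue was checked first. All 11 measured trophectoderm markers had a mean of at least 1 RPKM, led by TP-1 (interferon tau) and KRT8. Of 6 leukocyte markers 1 reached that level, with a summed level of 1.23 to 2.24 RPKM per library and PTPRC at 0.04 RPKM or less. None of 11 multiciliated cell markers reached it (sum 0.28 to 1.41 RPKM), CCNO was listed at 0 in all 4 libraries, and so was the endometrial marker PGR. Markers of other conceptus tissues were partly detected. Of 6 epiblast markers 4 reached 1 RPKM (sum 278 to 329 RPKM). LIN28A, DNMT3B and ZFP42 made up most of that sum, with means of 202, 61.8 and 29.8 RPKM. POU5F1 was at 2.08, NANOG at 0.46 and SOX2 at 0.085 RPKM. Of 8 extraembryonic endoderm markers 4 reached 1 RPKM (sum 266 to 550.03 RPKM), and of 6 mesoderm markers 2 (sum 12.2 to 34.9 RPKM). The mesoderm sum was mostly HAND1 (mean 13.15 RPKM) and VIM (10.8 RPKM). T, MIXL1, TBX6 and EOMES had means of 0.01, 0.0275, 0.1575 and 0.2025 RPKM. LGALS15 made up most of the endometrial sum of 81.8 to 99.7 RPKM. Relative depth, read from features above 0 in exactly 2 libraries, put conceptuses 2, 3 and 4 at 0.747, 1.06 and 0.669 of conceptus 1, and absolute depth is unknown.

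Most members were expressed. Of 109 members 88 had a mean of 1 RPKM or more, or 80.7%, against 38.1% of all features and 52.9% of the 15226 features with a symbol. At 5 RPKM or more there were 48 members, or 44.0%, against 25.3% of all features and 35.2% of those with a symbol. The median of the members on the log2(RPKM + 1) scale was 2.26, against 1.24 for features with a symbol. Summed over members, the level was 1206, 1138, 1111 and 1233 RPKM in conceptuses 1 to 4, which is 0.236% to 0.250% of each library's summed RPKM. Levels differed by role: 47 of the 49 members with a role in mitosis reached 1 RPKM, against 25 of 30 centrosome genes and 14 of 25 kinesins outside the mitotic list. No member was listed at 0 in all 4 libraries, and 6 were listed at 0 in at least 1.

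Of 13 measured centromere and CCAN genes, 12 reached 1 RPKM and 8 reached 5 RPKM. CENPW, which pairs with CENPT in a histone-fold dimer that binds DNA, was the highest at 23.8, 15.3, 16.7 and 18.7 RPKM. Its partner CENPT stood at 22.75, 10.1, 14.0 and 16.3 RPKM. Both were highest in conceptus 1 and lowest in conceptus 2, and the larger of the 2 was 1.22 ± 0.201 times the smaller. The level of CENPV, a protein named for its place at the centromere but not part of the CCAN, was 18.5 ± 5.21 RPKM. CENPP was at 16.8 ± 3.31 RPKM, and its complex partner CENPQ was the lowest of the list at 1.18, 0.97, 0.94 and 0.59 RPKM. Within a library CENPP was 19.3 ± 6.31 times CENPQ. In the H-I-K-M complex the highest of 4 subunits was 4.90 ± 0.846 times the lowest, with CENPH at 11.3 ± 2.43, CENPK at 8.40 ± 2.53, CENPM at 8.005 ± 3.79 and CENPI at 2.41 ± 0.450 RPKM. CENPM moved most between animals, at 10.4, 5.63, 4.01 and 12.0 RPKM, high in conceptuses 1 and 4. CENPL stood at 6.09 ± 0.834 RPKM and its partner CENPN, which reads the CENPA nucleosome, at 4.02 ± 0.953 RPKM. CENPC, the scaffold that joins CENPA chromatin to the outer plate, was at 2.67, 4.50, 4.19 and 3.61 RPKM. CENPB, which binds a satellite DNA motif, was at 4.76 ± 1.39 RPKM. The ranges of neighbours in this order overlapped throughout, except between CENPI and CENPQ. CENPA itself was not analysed here.

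The NDC80 complex has 4 subunits in equal number, but their transcripts were unequal. SPC24 was at 25.6, 29.5, 31.7 and 38.8 RPKM and SPC25, its partner at the inner end, at 17.6, 15.8, 14.3 and 15.4 RPKM. NUF2 was at 10.6, 19.6, 10.9 and 9.48 RPKM and NDC80, its microtubule-binding partner, at 2.96, 4.73, 3.37 and 3.13 RPKM. NUF2 and NDC80 were both highest in conceptus 2. The highest subunit was 9.17 ± 2.54 times the lowest, from 6.24 times in conceptus 2 to 12.4 times in conceptus 4. The range of SPC24 lay above that of SPC25, and that of NUF2 above that of NDC80, while SPC25 and NUF2 overlapped because NUF2 exceeded SPC25 in conceptus 2.

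The spindle checkpoint list was led by its target. CDC20, the activator of the anaphase-promoting complex (APC/C), was the highest member with a role in mitosis at 129, 78.2, 108 and 147 RPKM. It held 65.2% of the summed level of the 7 measured checkpoint genes, and 2.60% of features with a symbol had a higher mean. MAD2L1, the protein that sequesters CDC20, was at 28.2, 28.6, 29.4 and 28.3 RPKM. CDC20 was thus 4.05 ± 1.07 times MAD2L1 by transcript level, lowest in conceptus 2. MAD2L1 had a coefficient of variation (CV) of 1.85%, and 6 of the 6372 features at that level (mean of 5 RPKM or more, none listed at 0) had a lower CV. That evenness depends on the scale: after rescaling libraries by median ratios its CV was 8.18%, and 7.90% of features lay lower. The checkpoint kinases came next, the pseudokinase BUB1B at 11.1 ± 1.45, TTK, which starts the signal, at 7.935 ± 2.09 and BUB1 at 6.945 ± 1.12 RPKM. BUB1B, TTK and BUB1 were each highest in conceptus 2. The large fibrous-corona proteins were the lowest, with the kinetochore motor CENPE at 3.31, 6.22, 3.44 and 2.45 RPKM and CENPF at 2.06, 4.46, 4.83 and 2.11 RPKM. CENPF in conceptuses 2 and 3 lay above both other libraries. The ranges of CDC20 and MAD2L1 stood clear of each other and of the rest, and BUB3 was not analysed here.

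All 6 measured genes of the chromosomal passenger complex and of Aurora A with its activator had a mean above 10 RPKM. TPX2, which activates Aurora A on spindle microtubules, was at 34.5, 57.3, 44.9 and 37.05 RPKM. Its kinase AURKA was at 20.7, 17.9, 18.05 and 20.8 RPKM, lowest in conceptus 2, where TPX2 was highest. In the passenger complex, BIRC5 (survivin) was at 31.9, 38.2, 34.5 and 39.1 RPKM and CDCA8 (borealin) at 43.8, 22.5, 24.1 and 38.7 RPKM. The kinase AURKB was at 25.6, 16.45, 20.1 and 23.95 RPKM and its scaffold INCENP at 16.3, 8.74, 9.08 and 12.9 RPKM. CDCA8, AURKB and INCENP shared the same order, with conceptus 1 highest and conceptus 2 lowest, and BIRC5 did not follow it. The summed level of 8 extraembryonic endoderm markers was 550.03, 266, 349 and 385 RPKM in conceptuses 1 to 4, the same order as these 3 genes. APOA1 made up most of the sum and had this order, at 442, 207, 234 and 300 RPKM. Of the 8 markers 4 reached 1 RPKM, and none was listed at 0. Among those 4, RBP4 (100, 54.5, 110 and 81.1 RPKM) and GATA6 were highest in conceptus 3, and GATA4 was lowest there. Under 1 RPKM, FOXA2 had the order of the sum, and SOX17, AFP and TTR did not. Conceptuses 1 and 4 held the 2 highest values in 36.1% of all expressed features. The part of this tissue in the order was not tested. In the passenger complex the highest of the 4 subunits was 3.48 ± 0.758 times the lowest. INCENP ranged below AURKA without overlap, and neighbours among the other genes overlapped.

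Among the polo kinases PLK1, which acts at entry into mitosis, at kinetochores and in cytokinesis, stood far above its relatives at 60.2, 41.3, 39.7 and 42.65 RPKM. It held 77.9% of the family's summed level. PLK4, the trigger of centriole duplication, was at 4.71, 6.86, 6.15 and 5.29 RPKM. The stress-responsive PLK3 was at 5.56 ± 1.33 RPKM, overlapping PLK4, and PLK2 was the lowest at 1.71 ± 0.428 RPKM.

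Of 12 measured mitotic kinesins, 11 reached 1 RPKM and 6 reached 5 RPKM. KIF20A, which carries the passenger complex to the midzone in anaphase, was the highest at 43.3, 33.4, 44.0 and 44.3 RPKM. Its lowest library, conceptus 2, stood apart from 3 nearly equal ones, and its range lay above that of KIF22. KIF22, which pushes chromosome arms outward, was at 30.3, 15.3, 22.5 and 28.2 RPKM. KIF11, the motor that separates the poles, was at 16.2, 23.1, 22.3 and 19.2 RPKM. KIF22 was lowest and KIF11 highest in conceptus 2. KIF23, the centralspindlin motor of the midbody, stood at 14.6 ± 2.35 RPKM. The microtubule depolymerases KIF2C and KIF2A followed at 11.4 ± 1.24 and 7.01 ± 0.959 RPKM, without overlap. Plus-end regulators KIF18B and KIF18A were at 4.04 ± 1.07 and 2.83 ± 0.656 RPKM. The late-division motors KIF14 and KIF20B were at 2.98 ± 0.498 and 2.60 ± 1.02 RPKM, and KIF15, which maintains bipolarity alongside KIF11, at 2.45 ± 0.633 RPKM. KIF2B was listed at 0 in conceptuses 1 to 3 and at 0.04 RPKM in conceptus 4. KIF4A was not analysed here.

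The cytokinesis list holds 3 genes. PRC1, which bundles midzone microtubules, was at 14.1, 29.2, 32.8 and 18.8 RPKM. ANLN, the anillin scaffold of the contractile ring, was at 17.3, 24.8, 26.25 and 20.5 RPKM. ECT2, the exchange factor that activates RhoA at the equator, was at 5.43, 10.8, 8.43 and 8.28 RPKM. All 3 were lowest in conceptus 1 and had their 2 highest values in conceptuses 2 and 3. The ranges of PRC1 and ANLN overlapped, and that of ECT2 lay below both. Members of other lists that act late in division were divided. KIF20B had the same pattern, at 1.61, 3.51, 3.46 and 1.83 RPKM. KIF23 was lowest in conceptus 3, KIF14 highest in conceptus 1 and CEP55 highest in conceptus 4.

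**Figure D1:**
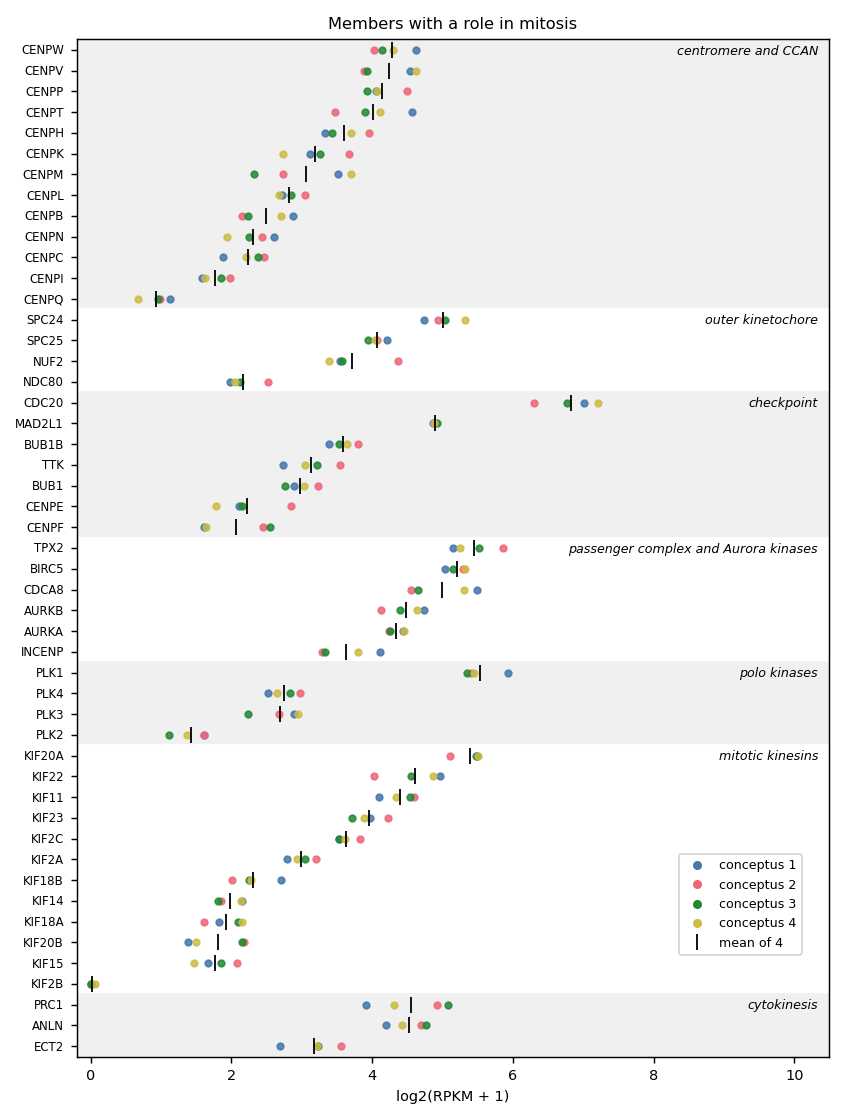
Level of the 49 members with a role in mitosis on the log2(RPKM + 1) scale (x axis), grouped by role and ordered by mean; points are the 4 conceptuses and the black tick is their mean. CDC20 stands furthest to the right, the 4 points of MAD2L1 nearly coincide, and KIF2B lies at the floor.

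Kinesins outside the mitotic list split into a few abundant motors and many near the floor. Of 25 such genes 14 reached 1 RPKM and 6 reached 5 RPKM, and 4 of them, KIF5B, KIF1C, KIF21A and KIF13B, held 70.04% of the list's summed mean. KIF5B, the heavy chain of the widely expressed conventional kinesin, was at 38.0, 54.0, 49.5 and 42.4 RPKM. Its relatives known mainly from neurons were far lower, KIF5A at 0.75, 3.44, 2.54 and 3.53 RPKM and KIF5C at 0.31, 0.26, 0.31 and 0.20 RPKM. KIF5A was the expressed member with the widest range, its highest library at 4.71 times its lowest, conceptus 1. The vesicle motor KIF1C was at 29.1, 14.2, 20.9 and 23.9 RPKM, and KIF21A, which restrains microtubule growth at the cell cortex, at 16.4, 28.2, 23.0 and 13.2 RPKM. KIF1C was lowest and KIF21A highest in conceptus 2. KIF13B, KIF1B and KIF24 were at 12.0 ± 1.62, 7.63 ± 1.16 and 7.48 ± 1.19 RPKM. KIF24 is known to hold back the primary cilium at the mother centriole.

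Motors of the cilium were divided. The intraflagellar transport subunits KIF3A and KIF3B were at 4.89 ± 1.01 and 3.70 ± 0.428 RPKM, and KIF7, the Hedgehog regulator at the cilium tip, at 3.32 ± 1.39 RPKM. KIF27 was at 1.01 ± 0.258 and KIF9 at 0.495 ± 0.162 RPKM. KIF17 was listed at 0 in conceptus 2 and at 0.07 to 0.09 RPKM elsewhere, and KIF19, a motor of motile cilia, at 0.02 RPKM in conceptus 3 and 0 elsewhere. KIF6 was at 0.02, 0.43, 0.16 and 0.20 RPKM, a range of values too near the last printed decimal to be read as a difference. KIF1A, known mainly from neurons, was at 0.115 ± 0.0695 RPKM and KIF21B at 0.145 ± 0.0574 RPKM, while the neuronal KIF5A described above had a mean of 2.565 RPKM. KIF26B stood at 3.19 ± 1.17 RPKM and its relative KIF26A at 0.46, 0.11, 0.32 and 0.69 RPKM. The endosome motor KIF16B was at 3.845 ± 0.548 RPKM. KIF13A was at 2.58 ± 0.387 RPKM. KIF3C, KIF12 and KIF25 were all under 1 RPKM, the last listed at 0 in conceptuses 2 and 3.

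Centrosome genes were detected widely and mostly at low level. Of the 30, 25 reached 1 RPKM, 6 reached 5 RPKM and 2 reached 10 RPKM, with a list median of 2.69 RPKM. CEP57, a pericentriolar protein, was the highest at 19.15, 22.0, 17.1 and 20.1 RPKM, above the range of CEP170B. CEP170B was at 10.0, 5.75, 8.86 and 16.2 RPKM and the centrosomal anchor CEP350 at 4.68, 10.4, 8.73 and 5.21 RPKM. These 2 differed in order, CEP170B being highest in conceptus 4 and lowest in conceptus 2, where CEP350 was highest. CEP70 and CEP76 stood at 6.92 ± 1.46 and 6.09 ± 0.628 RPKM. Among genes of centriole assembly, CEP120 was at 3.75 ± 0.523, CEP63 at 3.03 ± 0.275, CENPJ, which sets centriole length, at 2.60 ± 0.439, CEP135 at 2.26 ± 0.188 and CEP152, the platform that recruits PLK4, at 1.89 ± 0.129 RPKM. CEP152 had the lowest CV of the list at 6.84%. CEP55, a midbody protein of abscission rather than of the centrosome cycle, was at 3.50 ± 0.426 RPKM. The distal appendage gene CEP164 was at 1.48 ± 0.367 RPKM and CEP97, which caps centrioles, at 1.38 ± 0.171 RPKM. CEP290 of the ciliary transition zone and CEP250, the linker between centrioles, were at 0.55 ± 0.135 and 0.545 ± 0.103 RPKM. CEP85L was the lowest at 0.06 to 0.15 RPKM. Other genes, CEP57L1, CEP85, CEP19, CEP72, CEP95, CEP68, CEP128, CEP78, CEP44, CEP41, CEP170, CEP89 and CEP112, had means from 0.768 to 4.465 RPKM. For 28 CEP genes the deposited description gives a protein mass, and Spearman rho between mass and mean RPKM was -0.39 across genes. These genes share the same 4 libraries and are not independent replicates.

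**Figure D2:**
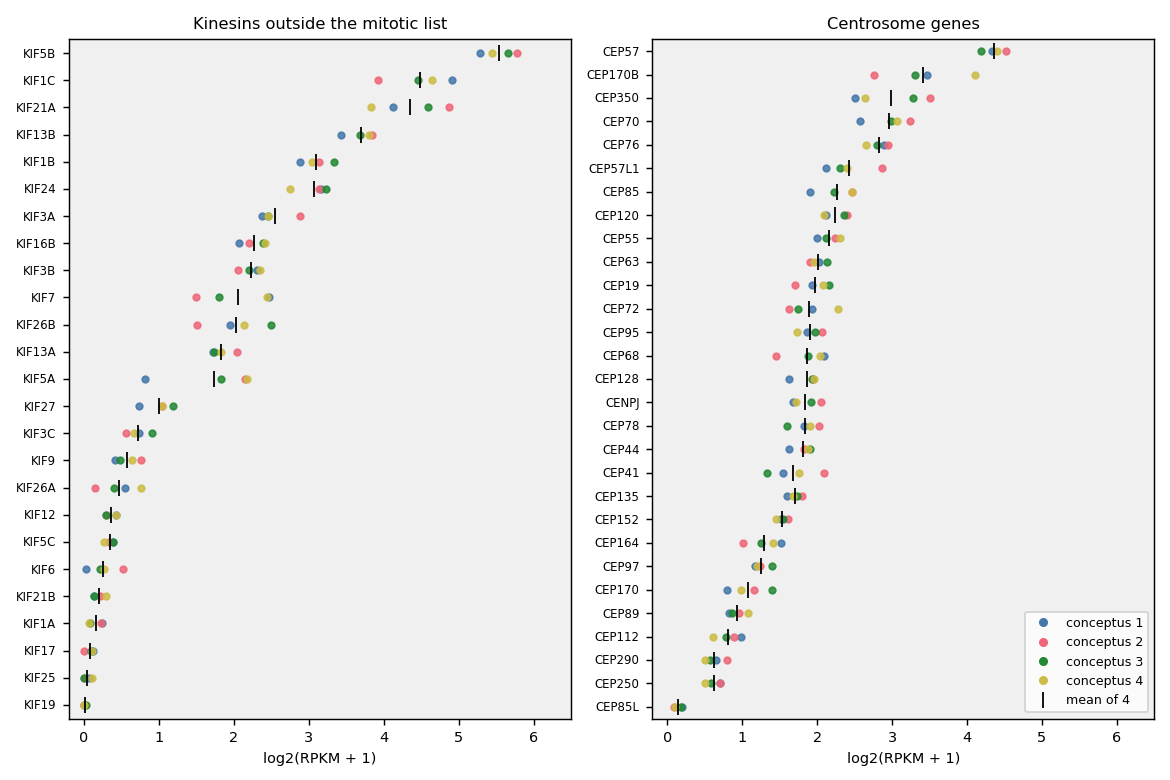
Level of the 25 kinesins outside the mitotic list (left) and of the centrosome genes reported here (right) on the log2(RPKM + 1) scale, ordered by mean; points are the 4 conceptuses and the black tick is their mean. KIF5B is the highest of the kinesins, and 11 of the 25 lie under 1 RPKM, while most centrosome genes lie between 1 and 5 RPKM.

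The 5 members taken by prefix were not alike. AURKAIP1, named for binding Aurora A and known also as a protein of the mitochondrial ribosome, was the highest of all 109 at 155, 109, 107 and 144 RPKM. MAD2L1BP, which removes MAD2L1 from checkpoint complexes, was at 21.3, 18.7, 9.52 and 22.65 RPKM, lowest in conceptus 3. CENPBD1 was at 1.99, 0.67, 0.48 and 0.75 RPKM. CDC20B, a gene of multiciliated cells, was at 0, 0, 0.06 and 0.10 RPKM, and ECT2L at 0.02 RPKM in conceptus 1 and 0 elsewhere. Both were near the floor, as were the multiciliated cell markers, a list that includes CDC20B itself.

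Related members were compared within each conceptus for 16 of 18 pairs. Differences are on the log2(RPKM + 1) scale. The paralogue pairs with the widest gaps were KIF5B over KIF5C by 5.20 ± 0.231, KIF21A over KIF21B by 4.16 ± 0.496 and KIF20A over KIF20B by 3.59 ± 0.552. KIF5C and KIF21B are under 1 RPKM, so the pseudocount sets these sizes, which were 6.96 and 6.34 with a pseudocount of 0.1. PLK1 exceeded PLK4 by 2.79 ± 0.451, KIF13B exceeded KIF13A by 1.86 ± 0.128 and KIF1C exceeded KIF1B by 1.38 ± 0.545. BIRC5 lay above INCENP by 1.57 ± 0.473 and NUF2 above NDC80 by 1.55 ± 0.215. Smaller gaps separated KIF2C from KIF2A (0.63 ± 0.105) and BUB1B from BUB1 (0.61 ± 0.113). In the other direction, PLK2 minus PLK3 was -1.26 ± 0.225, SPC25 minus SPC24 -0.94 ± 0.326, KIF18A minus KIF18B -0.39 ± 0.353 and KIF3B minus KIF3A -0.31 ± 0.355. These 14 pairs had the same order in 4 of 4 conceptuses. AURKB minus AURKA was 0.13 ± 0.175 and CENPE minus CENPF 0.16 ± 0.399, each positive in 3 of 4. The exact permutation test, flipping signs and two-sided, gave p = 0.13 for the 14 pairs (0.14 adjusted over 16), 0.25 for AURKB and AURKA (0.27 adjusted) and 0.375 for CENPE and CENPF (0.375 adjusted). The value 0.13 is the smallest that 4 conceptuses allow, so no pair could pass 0.05.

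**Figure D3:**
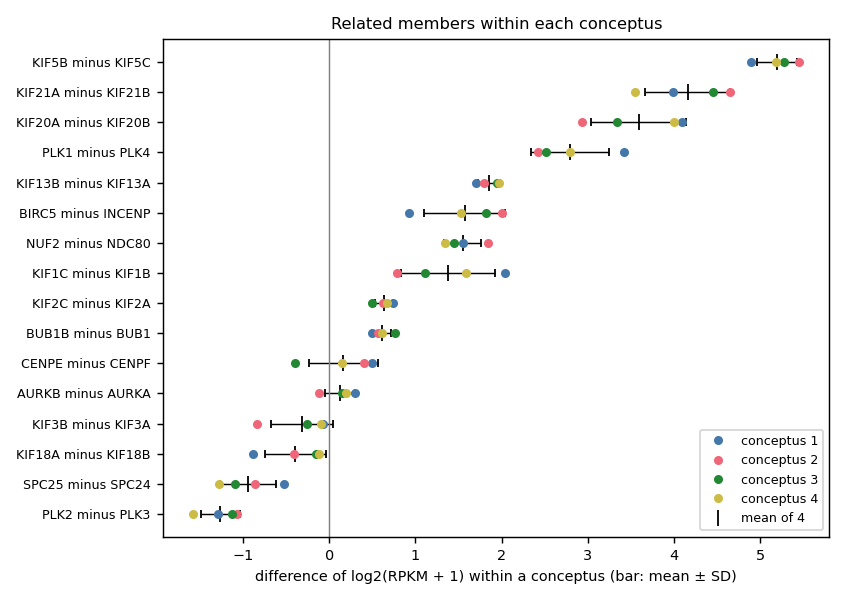
Difference in log2(RPKM + 1) between related members within each conceptus (x axis) for 16 pairs; points are conceptuses, and the bar is the mean ± SD. In 14 pairs all 4 points lie on the same side of 0; the points of AURKB minus AURKA and of CENPE minus CENPF fall on both sides.

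The spread between animals was moderate. Among the 88 members at 1 RPKM or more, the median CV was 21.0%, against 22.8% for the 9577 features of that level with no value of 0. The highest library exceeded 2 times the lowest in 18 of the 88, or 20.5%, against a background of 29.3% of features. Without conceptus 1 the count was 11, and without conceptus 2 it was 8. At a mean of at least 5 RPKM the members and the background were alike, with 10 of 48 members, or 20.8%, against 21.8% of features. Of the 18, those at 5 RPKM or more were PRC1, KIF1C, KIF21A, MAD2L1BP, CENPT, NUF2, CEP170B, CENPK, CENPM and CEP350. CENPM at 2.99 times and CEP170B at 2.81 times were the widest of these. No member of the passenger complex list or of the polo kinases passed 2 times, and CDCA8 came close at 1.95 times. Among the mitotic kinesins KIF20B passed, at 2.18 times. None of the 6 with a mean of at least 5 RPKM did, with KIF22 at 1.97 times. These lists are short, and their counts were not tested against the background shares above. Each feature's variance was set against the trend over all features with limma. The test called 0 of 88 members and 0 of 9602 features (0%), and at an unadjusted p under 0.05 it held 0 members and 466 features. The lowest limma adjusted p of a member was 0.984. In simulated data with 1 library shifted, this test called 0 of 100 features shifted by 3 on the log2 scale, 79 of 100 shifted by 5 and 100 of 100 shifted by 7, and the range of each expressed member, at most 4.71 times, is below the smallest of these shifts.

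**Figure D4:**
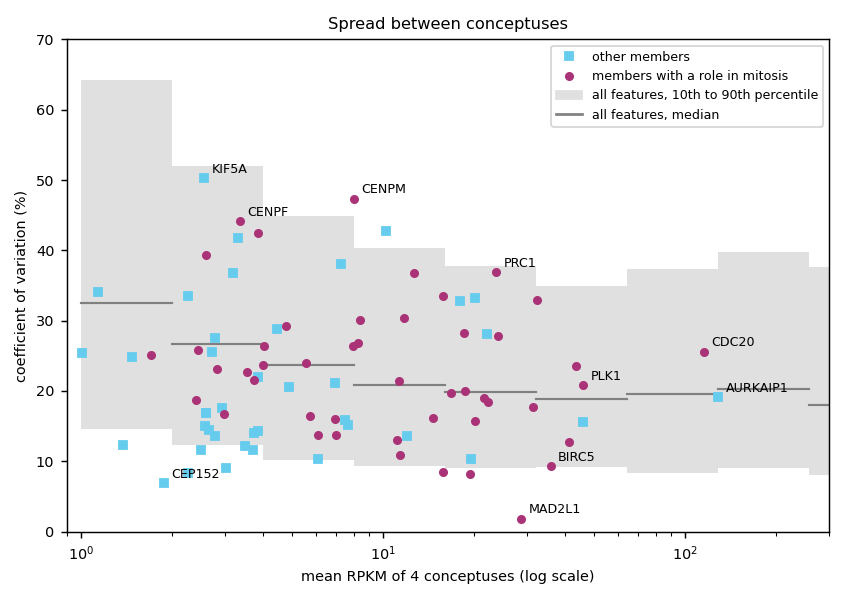
Coefficient of variation over 4 conceptuses (y axis, %) against mean RPKM (x axis, log scale) for the reported members with a mean of at least 1 RPKM; the grey band holds the 10th to 90th percentile of all features in each bin of the mean, and the grey line is their median. MAD2L1 lies below the band at 1.85%, and CENPM above it at 47.4%.

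The members did not all follow the same animal. Conceptus 2 was the highest library for 40 of the 88 expressed members, or 45.5%, against 25.5% of features of that level. It was also the lowest for 24, or 27.3%, against 32.8%. Conceptus 1 was the lowest for 37, or 42.0%, against 17.5% of features. After median-ratio rescaling, conceptus 2 was the highest for 44 members, or 50.0%, against 31.0% of features. These counts are descriptions of 4 libraries and carry no test.

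Opposite orders occurred among the expressed members. Conceptuses 2 and 3 held the 2 highest values in 32 members, or 36.4%, against 17.5% of features. They included PRC1, ANLN, ECT2, TPX2, KIF11, KIF5B, TTK, CENPF and CEP350. Conceptuses 1 and 4 held them in 25 members, or 28.4%, against 36.1% of features, among these CDC20, CDCA8, AURKB, AURKA, INCENP, KIF22, CENPW, CENPT and CENPM. TPX2 and the kinase it activates, AURKA, fell on opposite sides, AURKA by a narrow range, its highest library at 1.16 times its lowest. In the cytokinesis list 3 of 3 genes had the first order, and in the passenger and Aurora list 4 of 6 had the second. The libraries themselves differed in the same way, with median-ratio size factors of 1.07 and 1.05 for conceptuses 1 and 4 and of 0.951 and 0.940 for conceptuses 2 and 3. On the log2 scale these factors were 0.10, -0.07, -0.09 and 0.06 in conceptuses 1 to 4. AURKA deviated from its mean log2(RPKM + 1) by 0.09, -0.10, -0.09 and 0.10. The part of library scale in its order was not tested. After rescaling by these factors the first order held in 44 of 88 members, or 50.0%, against 26.8% of features, and the second in 21, or 23.9%, against 25.7%. The counts in the cytokinesis list and in the passenger and Aurora list did not change. Which libraries shared a sequencing chip is not given in the sources used, and its part in these orders was not tested. Across 23 expressed CEP genes, Spearman rho between protein mass and the deviation of a library was -0.04, 0.01, 0.28 and -0.34 for conceptuses 1 to 4. The part of transcript length in these orders was not tested.

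**Figure D5:**
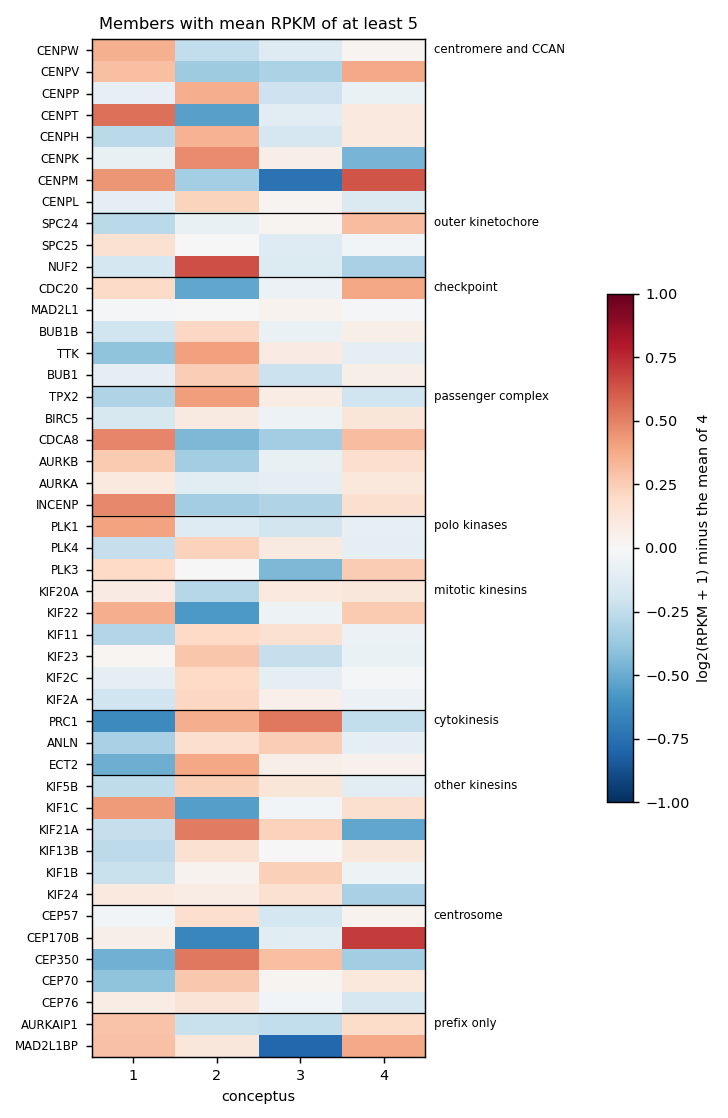
Deviation of each conceptus from the mean of 4 on the log2(RPKM + 1) scale (colour; red above, blue below) for the reported members with a mean of at least 5 RPKM, grouped by role. PRC1, ANLN and ECT2 are blue in conceptus 1, CDCA8 and INCENP are red in conceptuses 1 and 4, and MAD2L1 is close to white throughout.

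Other genes of the spindle lie outside the naming rule. Of 104 listed names 85 were measured. All 85 had a mean of at least 1 RPKM, against 38.1% of all features and 52.9% of features with a symbol. At least 5 RPKM was reached by 65, against 25.3% of all features and 35.2% of those with a symbol. The APC/C list held the highest, the ubiquitin-conjugating enzymes UBE2C and UBE2S, which work with the complex that CDC20 activates. UBE2C was at 163, 135, 129 and 189 RPKM and UBE2S at 199, 111, 78.5 and 176 RPKM. UBE2C and CDC20 were both high in conceptuses 1 and 4, which held the 2 highest values in 36.1% of all expressed features. ANAPC13, a core subunit, was at 32.2 ± 1.16 RPKM. In the list of cyclins and their regulators 8 of 10 names were measured, and CCNB1 and CDK1 were not among the 8. Of those measured CCNA2 led at 52.3 ± 8.96 RPKM, above CCNB2 at 22.5 ± 1.94 RPKM and the inhibitory kinase WEE1 at 20.1 ± 6.47 RPKM.

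All 7 measured condensin genes, which compact chromosomes, reached 5 RPKM, with SMC2 at 21.9 ± 5.30, NCAPH at 21.4 ± 3.84 and NCAPD2 at 20.1 ± 2.28 RPKM. Of 10 measured genes of the cohesin and securin list 9 did so, and securin itself was not among the 10. The list was led by the cleavable ring subunit RAD21 at 39.6 ± 4.68, SMC1A at 27.2 ± 8.89 and the release factor WAPAL at 17.4 ± 1.57 RPKM. Kinetochore partners reached 5 RPKM in 12 of 17 cases, with ZW10 at 15.8 ± 1.50, SKA3 at 15.2 ± 2.01 and SKA2 at 14.9 ± 6.51 RPKM. Among spindle assembly factors, with 10 of 16 at that level, the centrosome kinase NEK2 was at 33.0 ± 7.43, the centralspindlin subunit RACGAP1 at 31.1 ± 6.87 and the microtubule polymerase CKAP5 at 27.4 ± 4.54 RPKM. RACGAP1 thus lay above KIF23, its partner in centralspindlin. In the augmin and gamma-tubulin ring list 8 of 12 reached 5 RPKM, with TUBGCP2 at 24.2 ± 4.92, TUBGCP3 at 23.2 ± 4.79 and HAUS2 at 10.0 ± 4.35 RPKM.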

How the data were processed

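Libraries were strand-specific and read on an Ion Proton, with bases called by Torrent Suite 4.0.2, per the labels' protocols. Per the submitters' processing notes the build was Oar_v3.1; no source used here names the aligner, counter or annotation. RPKM were computed and deposited by the authors, and the name of their second sheet, which repeats the features with at least 5 RPKM in every library, gives the unit. Counts and absolute depth are unknown, so no counting interval is given, and a value of 0 is reported as listed at 0.

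Members were matched on the feature name. Of the 109, 108 occur in the RefSeq table of assembly ARS-UI_Ramb_v3.0, used for names only. Members, gene lists and pairs were chosen with earlier results of these data known. Replicates are the 4 conceptuses, numbered in accession order. Named genes are members with a mean of at least 5 RPKM, the 3 highest and the lowest of each list, both genes of each pair, members with a highest library at least 3 times the lowest, those taken by prefix and the 3 highest of each outside list; others were named after their values were seen, and 1 gene that this rule names is not reported here or drawn. List levels used log2(RPKM + 1), a pseudocount of 1. The variance test (limma 3.58.1, R 4.3.3) used an upper-tail F test against a robust trended prior with Benjamini-Hochberg adjustment over 9602 features (mean RPKM of 1 or more), and was tested on simulated data for these features with 4 libraries, with 1 false call at shifts of 5 and 7. Alternatives were other pseudocounts, filters, median-ratio scaling, leaving out each conceptus and the members with a mitotic role. Other steps used Python 3.11.15 with pandas 2.3.3, numpy 2.4.6, matplotlib 3.10.9 and scipy 1.17.1.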

Additional observations from a re-analysis of the deposited data

Results flagged for a closer look

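For 104 sets of 4 values (88 members and 16 pairs), the distance of the highest or lowest value to the next was divided by the range of the set. This quotient passed Dixon's critical value for 4 samples in 5 sets, and chance gives about 1 in 20, or 5.2 sets. PLK1 stood at 60.2 RPKM in conceptus 1, and at 39.7 to 42.65 RPKM elsewhere (quotient 0.856). KIF20A stood at 33.4 RPKM in conceptus 2, and at 43.3 to 44.3 RPKM elsewhere (0.912). NUF2 stood at 19.6 RPKM in conceptus 2, and at 9.48 to 10.9 RPKM elsewhere (0.855). KIF3A stood at 6.39 RPKM in conceptus 2, and at 4.21 to 4.49 RPKM elsewhere (0.872). CEP128, a gene singled out by this check, stood at 2.09 RPKM in conceptus 1, and at 2.83 to 2.90 RPKM elsewhere (0.914).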

How the results depend on the processing

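The number of members with a mean of at least 1 RPKM was 88, and 87 to 90 without 1 conceptus; restricted to members with a role in mitosis it was 47 of 49. The number at 5 RPKM was 48, and 49 to 50 without 1 conceptus. The count whose highest library exceeded 2 times the lowest was 18, and 8 to 15 without 1 conceptus, 8 with the mitotic roles alone and 10 with a mean of at least 5 RPKM, which keep fewer genes; it was 21 with median-ratio scaling and 25 with no filter on the mean. The members' median on the log2 scale was 2.26, and 1.96 with a pseudocount of 0.1, 3.59 for the mitotic roles, and 2.25 to 2.29 without 1 conceptus. The variance test called 0 members with each pseudocount, filter, scaling and left-out conceptus; over all features it called 0 in those settings, except 11 of 9559 (0.115%) without conceptus 1, 4 of 9635 (0.0415%) without conceptus 3 and 7 of 9567 (0.0732%) without conceptus 4. None of the 96 recomputed pair differences changed direction. For the 14 pairs with the same order in 4 of 4 conceptuses this was fixed in advance in every setting. Leaving out 1 conceptus, rescaling libraries or changing the pseudocount cannot reverse an order that holds within each library. Only AURKB minus AURKA and CENPE minus CENPF could have changed direction. The counts of library orders after rescaling were added after the data were seen. No paired analysis was possible because the design has 1 group, so no samples could be matched between groups; the gene pairs are compared within each conceptus. Unknown depth limits what can be said of members under 1 RPKM.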
